A study of Mus musculus with 8 samples.

Results

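The colony-stimulating factors and their receptors were examined in mouse cells as a set of 8 genes, chosen by symbol: the ligands Csf1, Il34, Csf2 and Csf3 and the receptor genes Csf1r, Csf2ra, Csf2rb and Csf3r. They were found on the Affymetrix expression arrays as 15 probe sets annotated to a single member and 1 more shared by Csf2rb and its close copy Csf2rb2, and they make up 8 of 18193 genes measured. In the transwell cultures, RAW264 macrophages grew on an insert (0.5 ml) above CT26 colon tumour cells in a 12-well plate (1.5 ml), with the insert set into the well 8 hours after seeding. Soluble factors could pass between the chambers and the cells could not touch. The 4 groups were RAW264 cells co-cultured with CT26 cells, RAW264 cells alone, CT26 cells co-cultured with RAW264 cells, and CT26 cells alone, with 2 arrays each, 1 from each of 2 runs of the experiment. All groups were grown in RPMI 1640 medium, no treatment other than co-culture is given for any of them, and each cell type is represented by a single established line. The CT26 cells were detached with trypsin before RNA isolation, while lysis of the RAW264 cells took place in the insert itself, so line and harvest cannot be told apart in any comparison between the lines.

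Colony-stimulating factors are secreted proteins that keep myeloid cells alive and drive their growth and maturation. CSF1 (M-CSF) and the unrelated protein IL-34 bind the same receptor tyrosine kinase, CSF1R, which macrophages need for survival. CSF2 (GM-CSF) binds a specific alpha chain, encoded by Csf2ra, which pairs with the common beta chain encoded by Csf2rb and relays through JAK2 and STAT5. CSF3 (G-CSF) acts on a receptor of its own, CSF3R, found mainly on neutrophils and their precursors. Tumour cells are a known source of CSF1, and macrophages in tumours carry its receptor.

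Because Csf1 is the ligand with the widest gap between the lines described next, its promoter is shown first, as the 250 bases before the annotated start in RefSeq (GRCm38.p6, chr3:107760470-107760719, minus strand), 5′ to 3′ on the gene's own strand. Capitals mark GGACTTTCC, letters of a common NF-kB site, found by string search on both strands and here read on the opposite strand.
Csf1: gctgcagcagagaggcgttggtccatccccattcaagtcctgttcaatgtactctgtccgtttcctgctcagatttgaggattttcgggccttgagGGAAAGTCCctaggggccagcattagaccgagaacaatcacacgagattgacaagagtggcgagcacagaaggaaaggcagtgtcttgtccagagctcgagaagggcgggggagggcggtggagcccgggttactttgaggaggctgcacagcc
The letters began 154 bases before the Csf1 start, and 113 of 32851 annotated windows of 300 bases held them (0.344%). The motif was chosen after the window had been read, a match is a description of letters and not of binding, and the Csf2 and Csf3r windows of the same table did not hold it.

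Arrays were of even scale, with medians of 5.88 to 5.94 on the log2 scale, and a gene was counted as above the floor where its probe set lay over the array's 40th percentile (5.21 to 5.28) on both arrays of a group. Macrophage markers matched the labels: 11 of 12 were above the floor in each RAW264 group, against 5 in CT26 co-culture and 7 in CT26 alone, and all 11 tested were higher in RAW264 cells. In lone culture all 11 were called higher, where 17% of all genes were. Markers under the floor in CT26 cells were tested only through the RAW264 groups. In the CT26 cells, which are labelled epithelial, 7 of 10 epithelial markers were above the floor in each group, against 4 in RAW264 co-culture and 3 in RAW264 alone. Between the lone cultures the 7 tested had a median RAW264 minus CT26 difference of -0.346. Of these, 4 were called lower in RAW264 cells, where 17.6% of all genes were. Krt18, Krt20 and Tjp1 were far higher in CT26 cells, with RAW264 minus CT26 differences of -5.18, -6.66 and -7.04 in lone culture, whereas Cdh1, Cldn7 and Vil1 were not above the floor on both arrays of any group. The mean of the mesenchymal and matrix markers lay at 11.6 to 12.2 in CT26 cells, and that of the epithelial markers at 6.99 to 7.07. The level of a gene in these bulk cultures sums over cells, so fewer expressing cells and less RNA per cell cannot be told apart.

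Csf1 was higher in the tumour cells than in the macrophages. On its brightest probe set (1460220_a_at), log2 intensities were 5.68 and 5.98 in RAW264 co-culture, 6.10 and 5.69 in RAW264 alone, 11.46 and 11.99 in CT26 co-culture, and 11.14 and 11.82 in CT26 alone, the first run before the second in each pair. Every CT26 array lay far above every RAW264 array, and within each line the co-cultured and lone arrays overlapped. Csf1 averaged 5.89 ± 0.29 in RAW264 alone and 11.48 ± 0.48 in CT26 alone (SD, n = 2 each), a log2 difference of -5.59 ± 0.29 (SE), or 48.1-fold lower in RAW264 cells (limma, adjusted p = 1.02e-05). In co-culture the gap was -5.90 ± 0.29, or 59.6-fold (limma, adjusted p = 8.28e-06).

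The other 3 Csf1 probe sets placed the transcript in the same cells but with gaps of other sizes. Their differences between RAW264 alone and CT26 alone were -1.47 ± 0.14 (1425154_a_at), -4.54 ± 0.30 (1448914_a_at) and -3.88 ± 0.15 (1425155_x_at). The last lay under the floor in RAW264 alone, so its value stands for a level at least 11.3-fold higher in CT26 alone. The smallest gap came from the probe set that read 7.81 and 7.82 in RAW264 co-culture and 7.59 and 7.79 in RAW264 alone, against 9.36 and 9.56 in CT26 co-culture and 9.07 and 9.25 in CT26 alone. The size of the Csf1 gap therefore rests on the probe set used, while its direction held on all 4.

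Il34, the second ligand of CSF1R, ran the same way at a smaller size. Its single probe set (1431920_a_at) read 4.86 and 4.56 in RAW264 co-culture, 4.57 and 4.69 in RAW264 alone, 6.42 and 6.45 in CT26 co-culture, and 6.24 and 6.04 in CT26 alone. The RAW264 arrays were all under the floor, and the CT26 arrays were all above it. Il34 averaged 4.63 ± 0.08 in RAW264 alone and 6.14 ± 0.14 in CT26 alone (SD, n = 2 each), and the log2 difference was -1.52 ± 0.15 (limma, adjusted p = 0.000226). Against the floor, Il34 in CT26 cells was at least 1.89-fold higher than in RAW264 cells when grown alone and at least 2.31-fold higher in co-culture.

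Csf1r, the receptor for both ligands, ran the opposite way, with its high levels in RAW264 cells. Its brightest probe set (1419872_at) read 14.48 and 14.54 in RAW264 co-culture, 14.68 and 14.65 in RAW264 alone, 5.95 and 5.91 in CT26 co-culture, and 5.83 and 5.35 in CT26 alone. The arrays of the lines stood far apart, and the RAW264 arrays of a group lay within 0.06 of each other. Means were 14.66 ± 0.02 in RAW264 alone and 5.59 ± 0.34 in CT26 alone (SD, n = 2 each), a difference of 9.08 ± 0.17 or 540-fold (limma, adjusted p = 2.63e-07). In co-culture it was 8.58 ± 0.17, or 382-fold (limma, adjusted p = 2.57e-07). The other 2 probe sets gave 7.76 ± 0.43 (1419873_s_at) and 5.60 ± 0.43 (1423593_a_at) between the lines grown alone.

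Csf2, the ligand of the GM-CSF receptor, was close to the floor everywhere. Its probe set (1427429_at) read 5.38 and 5.41 in RAW264 co-culture, 5.52 and 5.29 in RAW264 alone, 5.49 and 5.20 in CT26 co-culture, and 5.54 and 5.41 in CT26 alone. All groups overlapped, and the difference between RAW264 alone and CT26 alone was -0.07 ± 0.15, with a 95% confidence interval of -0.42 to 0.28 (limma, adjusted p = 0.762).

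The GM-CSF receptor chains were higher in RAW264 cells. Csf2ra, the alpha chain, read 9.92 and 11.11 in RAW264 co-culture, 10.43 and 11.22 in RAW264 alone, 4.55 and 4.21 in CT26 co-culture, and 4.44 and 4.04 in CT26 alone (1420703_at). On this probe set the CT26 arrays lay under the floor. The fold it gave in RAW264 cells over CT26 cells was at least 47.4 grown alone and at least 37.7 in co-culture. The log2 differences were 6.59 ± 0.43 (limma, adjusted p = 2.94e-05) and 6.14 ± 0.43 (limma, adjusted p = 4.36e-05). The second Csf2ra probe set (1420704_at) was above the floor in both lines. There the difference between the lone cultures was 1.09 ± 0.15, or 2.14-fold (limma, adjusted p = 0.00209). The size of the Csf2ra gap therefore rests on the probe set used.

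Csf2rb, the common beta chain shared with the receptors for interleukin-3 and interleukin-5, read 8.48 and 9.25 in RAW264 co-culture, 8.34 and 9.01 in RAW264 alone, 4.99 and 4.97 in CT26 co-culture, and 4.16 and 4.41 in CT26 alone (1455660_at). The CT26 arrays were again under the floor, and the RAW264 groups overlapped. On this probe set RAW264 cells exceeded CT26 cells by at least 10.7-fold grown alone and at least 12.0-fold in co-culture. The log2 differences were 4.39 ± 0.30 (limma, adjusted p = 4.07e-05) and 3.88 ± 0.30 (limma, adjusted p = 7.72e-05). The second probe set (1421326_at) gave 2.86 ± 0.24 for the lone cultures, at least 4.95-fold against the floor. Csf2rb2, a near-identical copy that serves interleukin-3 in mice, was under the floor in CT26 cells and differed by 2.29 ± 0.37, at least 2.92-fold higher in RAW264 alone (limma, adjusted p = 0.00293). The probe set shared by the pair (1450200_s_at) was above the floor in all groups. Between the lone cultures it differed by 0.54 ± 0.12, or 1.45-fold, and it cannot tell the copies apart.

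The G-CSF pair was dim. Csf3, the ligand (1419427_at), read 5.51 and 5.16 in RAW264 co-culture, 5.14 and 4.83 in RAW264 alone, 5.49 and 5.54 in CT26 co-culture, and 5.65 and 5.35 in CT26 alone. It passed the floor on both arrays in the CT26 groups only, and its difference between RAW264 alone and CT26 alone was -0.52 ± 0.18 (limma, adjusted p = 0.0702). With a replicate block for the 2 runs, this difference passed the threshold of 0.05 (limma, adjusted p = 0.00987 where both lines share the block and 0.00454 where each has its own). Csf3r, the receptor (1418806_at), read 5.01 and 4.84 in RAW264 co-culture, 5.07 and 5.02 in RAW264 alone, 4.89 and 4.65 in CT26 co-culture, and 4.82 and 4.64 in CT26 alone. It lay under the floor on every array and was not tested. The floor is a percentile of the array and not a limit of detection.

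**Figure D1:**
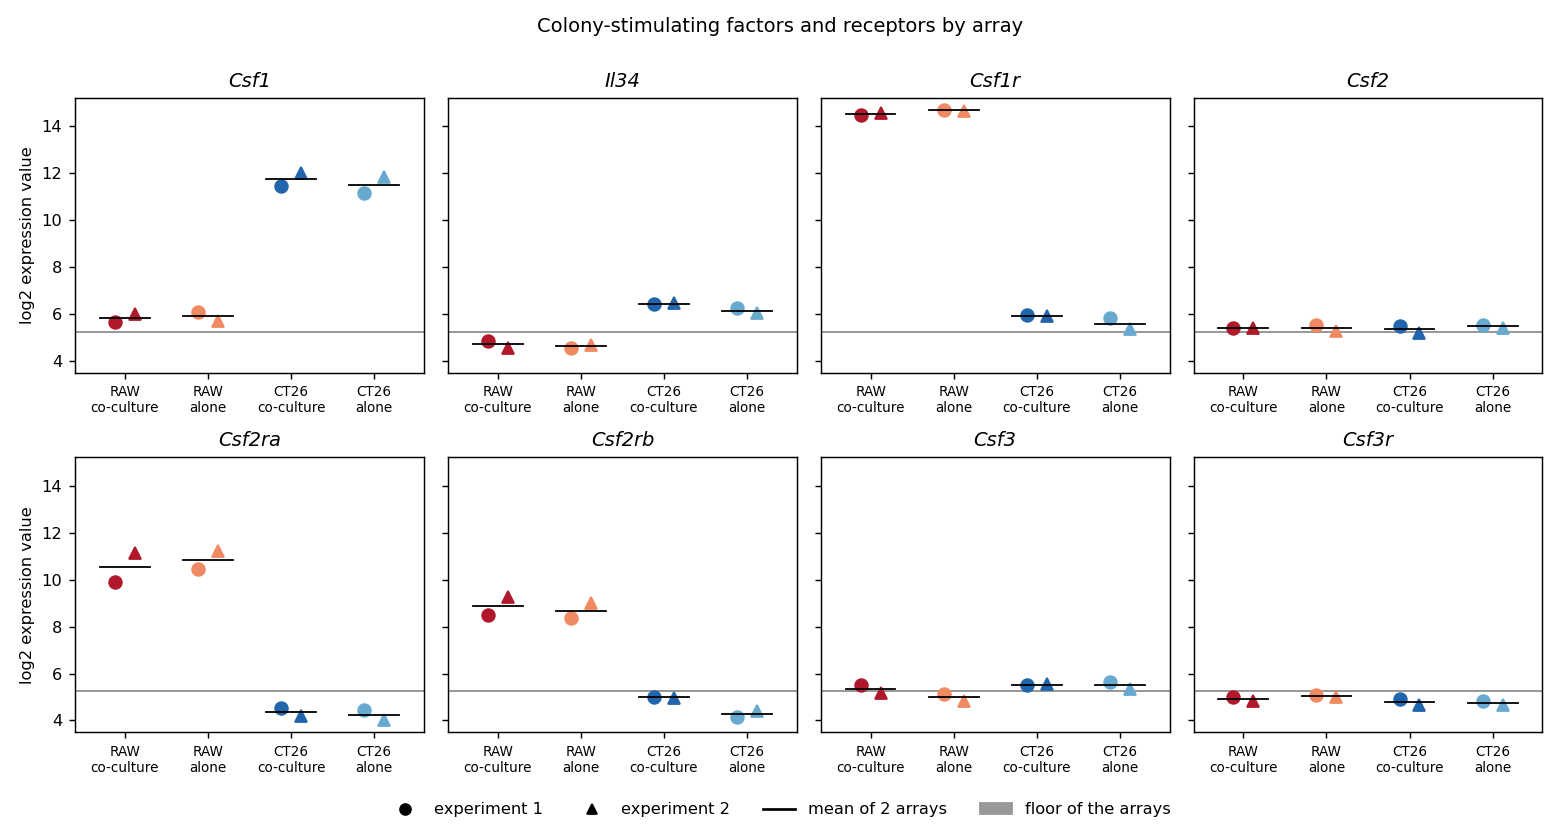
Log2 expression value (vertical axis) of each member's brightest probe set in the 4 groups, where RAW stands for RAW264; circles and triangles are the 2 runs, short lines the means of 2 arrays, and the grey line the floor. Csf1 stands above 11 in every CT26 array, and Csf1r above 14 in every RAW264 array.

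Between RAW264 alone and CT26 alone, 5 of the 7 members tested were called (3 receptors higher, the ligands Csf1 and Il34 lower), where 34.6% of the 13196 genes tested were called in either direction (17% higher, 17.6% lower). With either replicate block the count was 6, Csf3 included, where a shared block called 52.9% of genes and a block per line called 58.6%. Between the lines in co-culture the count was again 5, where 34.8% of genes were called (17.7% higher, 17% lower). The probe sets used for Il34, Csf2ra, Csf2rb and Csf3 were tested through the 1 line where they passed the floor, and these counts describe the members and say nothing particular about them. Ordered by level over the groups, Csf1 and Il34 ran highest in CT26 co-culture, then CT26 alone, with RAW264 lowest, and neither had a difference between co-culture and lone culture of a line that passed the test. For Csf1r the order was RAW264 alone, RAW264 co-culture, CT26 co-culture, CT26 alone. Csf2ra was likewise higher in RAW264 alone than in RAW264 co-culture by its means and Csf2rb the other way round, neither by a difference that passed the test, and their brightest probe sets give no order within CT26 cells, where they lay under the floor.

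**Figure D2:**
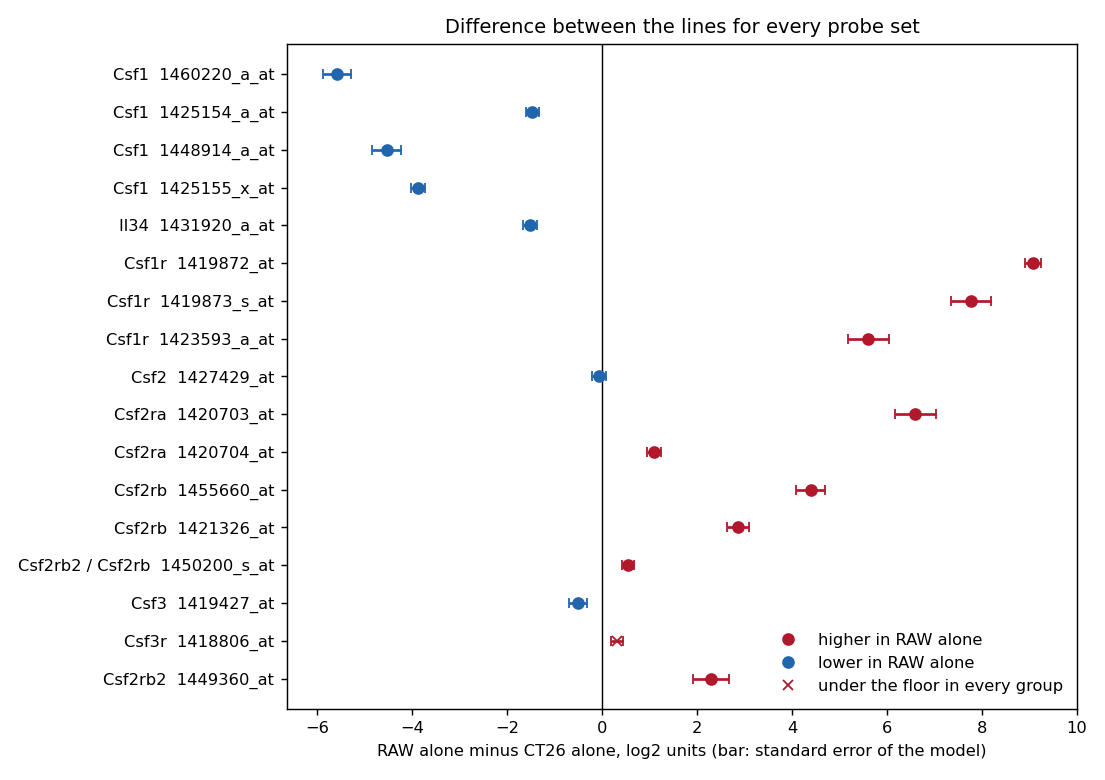
Log2 difference of RAW264 alone minus CT26 alone (horizontal axis) for every member probe set and for Csf2rb2, with the standard error of the limma model as bars. Csf1 and Il34 lie below 0 and the receptor genes Csf1r, Csf2ra and Csf2rb above it, while the probe sets of a gene differ in the size of the gap.

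The question behind the co-culture was whether soluble exchange alters either cell. In RAW264 cells none of the 7 members tested was called on co-culture (limma, lowest adjusted p = 1), where 0.25% of genes were called. Before adjustment 694 of 13196 genes had a p under 0.05, none of them a member. With a replicate block per line 3.56% of genes were called, with a shared block 1.11%, and with neither was a member called (limma, lowest adjusted p = 0.143, Csf3, block per line). An unadjusted p under 0.05 was then found for 1 of 7 members and 1625 genes (shared) or 2 members and 2418 genes (per line).

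Among the ligands, Csf1 differed by -0.07 ± 0.29 in RAW264 co-culture against RAW264 alone (95% confidence interval -0.76 to 0.62), with -0.43 in the first run and 0.29 in the second. On its other probe sets the estimates were 0.13 ± 0.14, 0.37 ± 0.30 and 0.44 ± 0.15, the last on arrays around the floor, so the probe sets of Csf1 did not share a sign. The estimate for Csf3 was 0.35 ± 0.18 (interval -0.08 to 0.79), with 0.37 and 0.34 in the 2 runs, on arrays around or under the floor. Il34 and Csf2 moved in opposite directions in the 2 runs. Among the receptors, Csf1r differed by -0.16 ± 0.17 (interval -0.56 to 0.24; -0.20 and -0.12 in the runs), Csf2ra by -0.31 ± 0.43 (interval -1.33 to 0.70; -0.51 and -0.11) and Csf2rb by 0.19 ± 0.30 (interval -0.53 to 0.91; 0.14 and 0.24). The second Csf2ra probe set ran -0.54 ± 0.15, with -0.67 and -0.41 in the runs, and was not called (limma, adjusted p = 0.664 over all probe sets, of which 0.11% were called). The other Csf1r probe sets gave -0.26 ± 0.43 and -0.08 ± 0.43. For Csf2rb the second probe set gave 0.18 ± 0.24, with -0.28 and 0.63 in the runs, and the set shared with Csf2rb2 gave 0.18 ± 0.12. The intervals leave room for changes of the sizes they span and are not adjusted for the number of genes tested. With 2 arrays a group, changes within them were not detectable, and larger ones could also go uncalled. The macrophage marker Fcgr1 differed by 1.77 ± 0.24 in this comparison and was not called without a block (limma, adjusted p = 0.0585).

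In CT26 cells no member was called either (limma, lowest adjusted p = 0.9999), where 0% of genes were called and 107 of 13196 had an unadjusted p under 0.05, none of them a member. The replicate block, shared or per line, also left 0% of genes called. An unadjusted p under 0.05 was then found for 2 of 7 members and 356 genes (shared) or 3 members and 752 genes (per line, limma, lowest adjusted p of a member 0.1995, Csf2rb). Csf1 had an estimate of 0.24 ± 0.29 for CT26 co-culture minus CT26 alone (interval -0.45 to 0.93), with 0.32 and 0.17 in the runs. Its other probe sets gave 0.30 ± 0.14, 0.29 ± 0.30 and 0.32 ± 0.15, so all 4 stood above lone culture in both runs. These probe sets read 1 gene on the same arrays and are not independent measurements, and none was called with any block (limma, adjusted p = 0.817 to 0.938 with a block per line). Leaving out 1 CT26 array, which leaves unequal runs to be compared, put the change on the brightest probe set between -0.10 and 0.58.

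Il34 had an estimate of 0.29 ± 0.15 in CT26 co-culture (interval -0.06 to 0.64), with 0.17 and 0.41 in the runs. The estimate for Csf1r was 0.34 ± 0.17 (interval -0.06 to 0.74; 0.12 and 0.57), and that for Csf2rb 0.70 ± 0.30 (interval -0.02 to 1.42; 0.84 and 0.57), on arrays that all lay under the floor. The other Csf1r probe sets gave 0.72 ± 0.43 (1419873_s_at, 0.23 and 1.21 in the runs) and 0.12 ± 0.43 (1423593_a_at, 0.41 and -0.17). The 2 other probe sets that read Csf2rb gave 0.33 ± 0.24 (1421326_at) and 0.23 ± 0.12 (1450200_s_at) in the same direction. The first lay under the floor on all CT26 arrays, and the second is shared with Csf2rb2. Macrophage markers in the same arrays averaged 5.76 to 5.79 in CT26 co-culture and 5.78 to 5.79 in CT26 alone, and 3 of 11 tested were higher in both runs and 3 lower, with a median change of -0.07. Those higher in both runs were Ctss (0.36), Itgam (0.23) and Ptprc (0.21), whose CT26 group means lay under the floor. Those lower were Cd53 (-0.26), Cd68 (-0.17) and Cd14 (-0.15). Lyz2 read 6.18 ± 0.36 in co-culture and 6.16 ± 0.08 alone.

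Counted by direction, 5 of the 7 members tested were higher in CT26 co-culture in both runs and 1 was lower, where 23.8% of all genes tested were higher in both and 30.1% lower. Of the 5, Csf2ra and Csf2rb lay under the floor on every CT26 array, and the second Csf2ra probe set, which was above it, was lower in both runs (-0.04 and -0.46). By probe set the counts were 10 higher and 2 lower of 14, several of them reading 1 gene, where 23.7% of 28287 were higher and 29.9% lower. In RAW264 cells 2 members were higher and 2 lower, where 32.5% of genes were higher and 29.1% lower. By probe set 5 were higher and 5 lower there, where 31.1% were higher and 28.9% lower. Median changes over the 7 members, those under the floor included, were -0.01 in RAW264 cells and 0.24 in CT26 cells, against 0.01 and -0.01 over all genes tested.

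**Figure D3:**
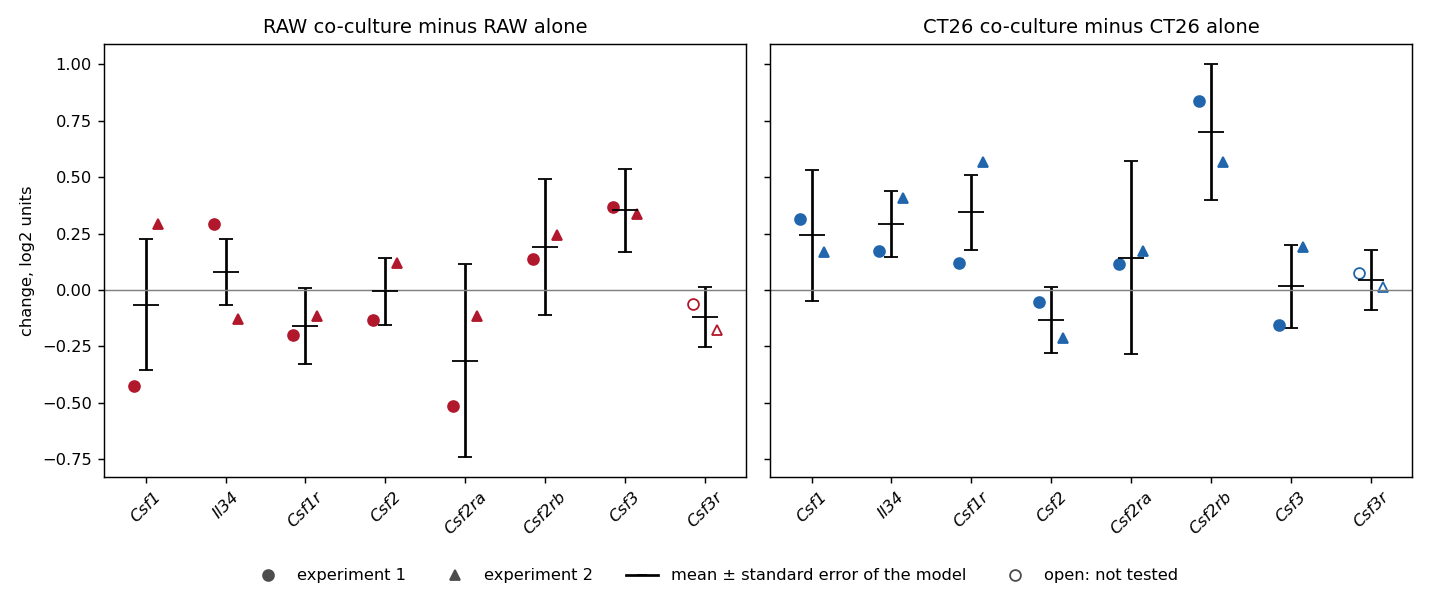
Log2 change on co-culture (co-culture minus alone, vertical axis) of each member's brightest probe set in RAW264 cells (left) and CT26 cells (right); circles and triangles are the 2 runs, and the bars the mean ± the standard error of the limma model. Csf1 lies at -0.07 in RAW264 cells and 0.24 in CT26 cells, open symbols (Csf3r) were not tested, and no member was called in either line.

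The co-culture changes of the lines were compared directly as the change in RAW264 cells minus that in CT26 cells. No member was called (limma, adjusted p = 0.9998), where 0.00758% of genes were called, 1 in all. The differences were -0.31 ± 0.41 for Csf1, -0.50 ± 0.24 for Csf1r, -0.51 ± 0.43 for Csf2rb, and -0.46 ± 0.60 for Csf2ra. With a replicate block no member was called either, where a shared block called 0.0834% of genes and a block per line called 0.743% (limma, lowest adjusted p of a member 0.219, for Csf2rb).

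Several members varied more in level between the runs than between co-culture and lone culture. Second run minus first, Csf2ra differed by 1.19 in RAW264 co-culture and 0.79 in RAW264 alone, and Csf2rb by 0.77 and 0.66. The Csf1r probe set 1423593_a_at shifted by 1.09 and 0.96 in the same groups, whereas 1419872_at moved by 0.06 and -0.02. In CT26 cells Csf1 shifted by 0.53 in co-culture and 0.68 alone. Over all genes the median size of this shift was 0.222, 0.216, 0.193 and 0.165 in RAW264 co-culture, RAW264 alone, CT26 co-culture and CT26 alone, and its 90th percentile was 0.629, 0.612, 0.566 and 0.492. The Csf2ra and Csf2rb shifts thus lay above the 90th percentile of their group, and that of Csf1 did so in CT26 alone but not in CT26 co-culture, and what differed between the runs is not recorded in the labels.

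Downstream of CSF1R, 18 signalling genes were tested (adaptors, Src-family kinases, phosphatases and phospholipases). Between RAW264 alone and CT26 alone, 9 were called higher and 3 lower, where 17% of all genes were called higher and 17.6% lower. Tyrobp, the DAP12 adaptor of myeloid receptors, was 8.79 ± 0.24 higher in RAW264 cells than in CT26 cells, and the RAW264 minus CT26 difference of Yes1, a Src-family kinase, was -4.25 ± 0.19. Inpp5d, the phosphatase SHIP1, was 5.01 ± 0.22 higher, and the kinase Src differed by -2.09 ± 0.49. Yes1 lay under the floor in RAW264 alone (mean 4.52), and Tyrobp lay around it in CT26 alone (mean 5.35, SD 0.52). The sizes of the Yes1 and Tyrobp gaps are therefore uncertain. Genes named for the line difference in these lists were picked after their values were seen. On co-culture none of the 18 was called in either line without a block, with medians of -0.004 in RAW264 cells and 0.007 in CT26 cells. In RAW264 cells, Dok2, an adaptor that dampens kinase signalling, had an estimate of 0.49 ± 0.24 in the fit without a block. Dok2 passed the threshold only with a block per line (limma, adjusted p = 0.0413). The lowest statistic there was that of Adam17, the protease that cuts CSF1R from the cell surface, at -0.30 ± 0.15. Plcg2, a phospholipase of myeloid signalling, had the highest statistic in CT26 co-culture at 0.67 ± 0.22, with 0.72 and 0.63 in the runs (limma, adjusted p = 0.9999 without a block, 0.247 with a block per line), and Yes1 the lowest at -0.23 ± 0.19.

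Of 13 genes of the JAK-STAT relay used by GM-CSF and G-CSF, 3 were called higher and 2 lower in RAW264 alone against CT26 alone, a share near the 34.6% of all genes called. The lower genes were the feedback inhibitors Socs2 (-4.94) and Socs1 (-0.91), and Stat5a (1.19), Tyk2 (1.12) and the survival factor Mcl1 (0.96) were higher. Socs2 averaged 4.32 in RAW264 alone, under the floor, so the size of its gap is uncertain. On co-culture none was called in either line without a block, with medians of 0.17 in RAW264 cells and 0.01 in CT26 cells. In RAW264 cells 6 of the 13 were higher in both runs and 1 lower, where 32.5% of all genes were higher and 29.1% lower. Stat5a, the transcription factor that relays GM-CSF, differed by 0.53 ± 0.20 in RAW264 co-culture in the fit without a block. Stat5a passed only with a block per line (limma, adjusted p = 0.837 without a block and 0.0429 with it). Jak2, the kinase bound to the common beta chain, had the lowest statistic in both lines, at -0.10 ± 0.14 in RAW264 cells and -0.13 ± 0.14 in CT26 cells, and Tyk2 the highest in CT26 cells at 0.14 ± 0.12.

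Of 9 transcription factors known to act on Csf1r, 4 were called higher in RAW264 alone than in CT26 alone and 1 lower (17% and 17.6% of all genes). Spi1, which encodes PU.1, differed by 5.56 ± 0.36, Fli1 by 5.18, Cebpa by 3.35 and Irf8 by 2.37, whereas the immediate early gene Egr1 differed by -3.50. Fli1 averaged 4.34 in CT26 alone, under the floor, so the size of its gap is uncertain. On co-culture none was called in either line without a block. A block per line called 1.55% of all genes higher and 2.01% lower. With it, RAW264 co-culture had 1 called higher, Egr1 (1.11, limma, adjusted p = 0.0431). Called lower were 2, Egr2 (-1.48, limma, adjusted p = 0.0012) and Cebpa (-0.55, limma, adjusted p = 0.046). In the fit without a block their standard errors were 0.52, 0.58 and 0.58, in that order. Egr2 averaged 5.76 ± 1.15 in RAW264 co-culture and 5.33 ± 0.14 in CT26 co-culture (SD, n = 2 each), so its levels there reached down to the floor. Egr2, a relative of Egr1 in the same early response, had an adjusted p of 0.890 without a block, and its change differed between the lines by -1.16 ± 0.82 (limma, adjusted p = 0.9998 without a block and 0.0297 with a block per line). In CT26 cells the extremes were Spi1 at -0.37 ± 0.36 and Fli1 at 0.29 ± 0.21. The Fli1 means there, 4.63 in co-culture and 4.34 alone, lay under the floor.

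RNA-binding proteins act on cytokine messages, several of them through AU-rich elements, and 9 such proteins were tested by their genes. Zfp36, which speeds decay of such messages, was 2.05 higher in RAW264 alone than in CT26 alone, and its relative Zfp36l1 differed by -3.89. In all, 2 were called higher and 4 lower between the lines, where 34.6% of all genes were called in either direction, and none on co-culture with any block. In RAW264 co-culture the extremes by statistic were Zfp36l2 at -0.35 ± 0.13 and Elavl1, which stabilises such messages, at 0.17 ± 0.12, and in CT26 co-culture Zc3h12a at -0.15 ± 0.18 and Zfp36l1 at 0.21 ± 0.31. Among related cytokines and receptor chains, 5 of 10 genes on the array were tested. Kitl, the ligand of the KIT receptor, averaged 8.63 ± 0.28 in RAW264 co-culture and 9.43 ± 0.33 in RAW264 alone (SD, n = 2 each). Its difference was -0.80 ± 0.20 in the fit without a block, with -0.76 and -0.83 in the runs. Kitl passed the threshold only with a block per line (limma, adjusted p = 0.414 without a block and 0.0051 with it). Sdc1, a heparan sulfate proteoglycan that binds IL-34, differed by -0.54 ± 0.35 in the fit without a block. Sdc1 passed with either block (limma, adjusted p = 0.0192 with a block per line). In CT26 cells none of the 5 was called with any block.

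**Figure D4:**
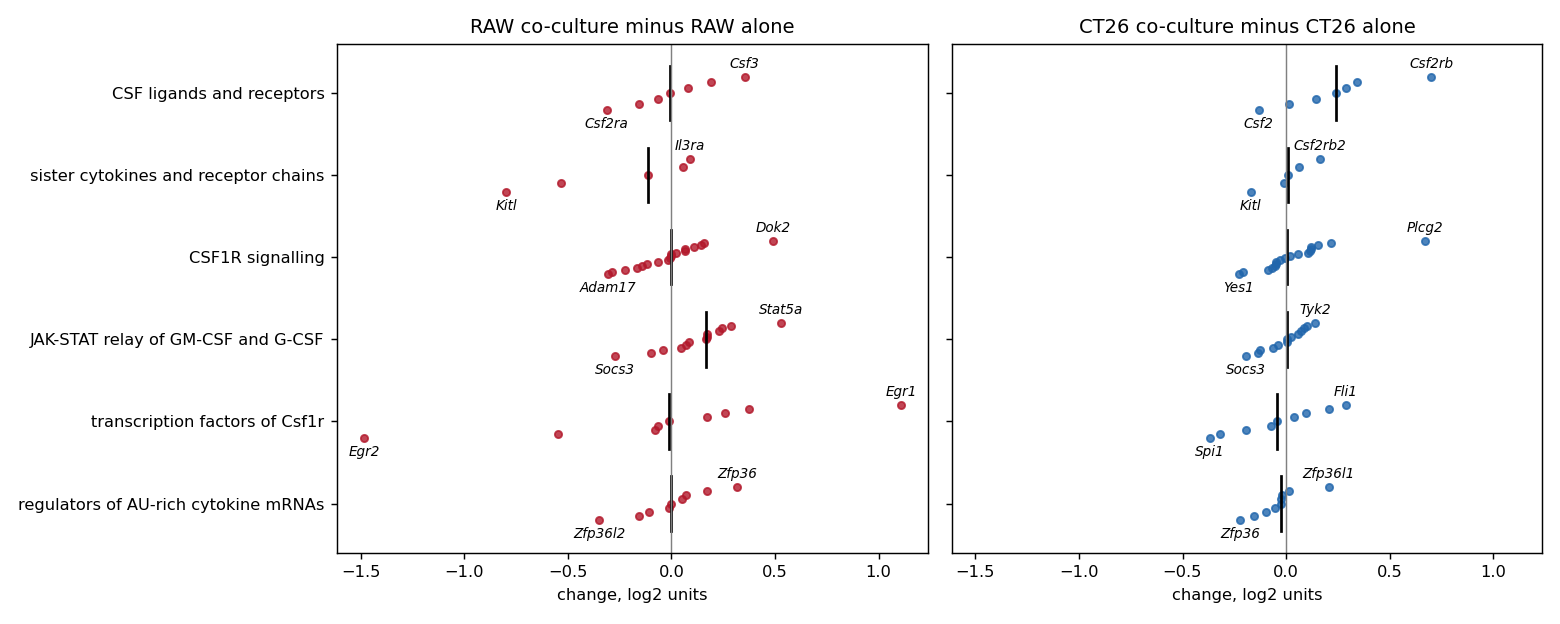
Log2 change on co-culture (horizontal axis) of each tested gene of the member list and 5 pathway lists, for RAW264 cells (left) and CT26 cells (right); black bars are list medians, and the lowest and highest genes by change are named. Medians lie between -0.11 and 0.24, and no gene of these lists was called without a replicate block.

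The tested genes whose log2 profile over the 8 arrays lay closest to each member, after centring, are given with the root mean square difference and Pearson's r as descriptions over arrays that share the difference between the lines. For Csf1 these were Pdlim1 (0.217, r = 0.998), Parva and Npdc1. For Il34 they were Albfm1 (0.114, r = 0.990), Fbxo6 and Smim14. For Csf1r they were Srgn (0.251, r = 0.999), Ctss and Lyz2, of which the last 2 are on the macrophage marker list. For Csf2ra they were Cyth4 (0.250, r = 0.997), Slc16a10 and Pik3ap1, and for Csf2rb Plcg2 (0.188, r = 0.998), Nol4l and Parvg. Csf2 and Csf3, which hardly varied, had Spats2l (0.0441, r = 0.930) and Kptn (0.0862, r = 0.943) as their nearest genes.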

How the data were processed

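The deposited values are log2 probe-set intensities that the authors made with RMA (affy), as the submitters' processing notes record; versions, settings and genome build were not given in the sources used here. RMA puts all arrays on a common distribution, so levels are relative within the 8 arrays. Levels of different probe sets are compared only through the floor, the choice of the brightest probe set and the marker means. Of 45101 probe sets, 64 array controls were left out and 34945 with a single symbol were used; a gene is its probe set of highest mean. Genes above the 40th percentile on both arrays of at least 1 group were tested with limma 3.58.1 (R 4.3.3), 13196 in all, with Benjamini-Hochberg adjustment, a threshold of 0.05, all 4 groups in 1 fit and 4 residual degrees of freedom; the script was tested on simulated data. Replicate numbers mark the 2 runs of the experiment, per the labels, and same-numbered arrays deviated together (r = 0.484 to 0.765), so blocks were tried, shared by the lines or per line. Nothing says that the runs used separate stocks of cells, and p-values without a block measure the spread between them. With a block, p-values measure the spread left once the shift between the runs, shared or per line, is taken out. The number of arrays limits the precision. Probe sets were tested in a fit of their own over 28287. A ± on a difference is the standard error without a block throughout, also where a p-value with a block stands beside it. Other floors, other probe-set rules, cyclic loess, and leaving out each array were tried as alternatives. The text names all members and their probe sets, from each list the genes called on co-culture or else the largest statistic in each direction, and for each member the 3 nearest profiles. The members and lists were chosen with earlier results of these data known.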

Additional observations from a re-analysis of the deposited data

Results flagged for a closer look

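For 3 members both runs gave opposite directions of change in the lines. The share of all genes that did so was not counted, so the number says nothing particular about the members. Taken by line, 29.1% of genes tested were lower in both runs in RAW264 co-culture and 23.8% higher in both in CT26 co-culture. The change on co-culture in RAW264 cells minus that in CT26 cells was -0.50 for Csf1r, -0.46 for Csf2ra and -0.16 for Csf3r on the log2 scale. On the probe set used, both runs were below lone culture in RAW264 cells and above it in CT26 cells. The direct test of the difference did not pass for Csf1r and Csf2ra (limma, adjusted p = 0.9998 for both), and the difference was not tested for Csf3r, which lay under the floor on all arrays. The Csf2ra probe set used was also under the floor in CT26 cells, and the second one (1420704_at), above the floor there, was below lone culture in both runs in both lines. The third Csf1r probe set (1423593_a_at) had 0.41 and -0.17 in the CT26 runs. Groups of 2 arrays were too small for a check on outlying arrays.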

How the results depend on the processing

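The 5 members called between the lines were called in both culture conditions under every alternative run, and no member was called on co-culture or for the difference of the changes. A replicate block added Csf3 in lone culture, which made 6. Of the 32 combinations of member and group, 19 were above the floor, and 11 were with the floor at the 50th percentile. Values with another sign all belong to uncalled changes: Csf1 in RAW264 co-culture at 0.22 and Csf2ra in CT26 co-culture at -0.053 with the mean of all probe sets, and Csf3 in CT26 co-culture at -0.0088 after cyclic loess. Leaving out 1 array at a time, which leaves unequal runs to be compared, gave, for RAW264 co-culture, -0.27 to 0.14 for Csf1, -0.069 to 0.23 for Il34, -0.12 to 0.10 for Csf2, -0.91 to 0.28 for Csf2ra and -0.20 to 0.58 for Csf2rb. For CT26 co-culture it gave -0.096 to 0.58 for Csf1, -0.28 to 0.012 for Csf2, -0.057 to 0.34 for Csf2ra and -0.14 to 0.17 for Csf3. For the difference of the changes it gave -0.65 to 0.029 for Csf1, -0.018 to 0.27 for Csf2 and -1.05 to 0.14 for Csf2ra. Between the lines Csf2 ran at -0.18 to 0.041 alone and -0.089 to 0.20 in co-culture. The cause was not tested. Over all genes the replicate block changed counts of calls, in RAW264 co-culture to 146 (shared by the lines) or 470 (per line), against 33 without it. Fitting only the arrays of the groups compared cannot give the difference of the changes, which needs all 4 groups. With 2 arrays a group, members near the floor have only a bound on their fold.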
